A study of Solanum lycopersicum var. cerasiforme with 6 samples.

Results

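The comparison described here set the transcripts of ABA-treated fruits against those of water-injected fruits over the whole genome. Of the 31571 entries of the deposited table, 18206 were compared, namely those that named a single gene, had a mean of at least 1 FPKM over all groups and came from a locus longer than 300 bp. FPKM are fragments per kilobase of transcript, scaled to the number of mapped fragments, so levels can be compared between genes per length. The entries left out were 5894 without a gene, 1121 with several merged genes, 6191 with a single gene and a mean below 1 FPKM, and 159 from shorter loci. The entry just above the bound on the level, Solyc01g094190.2, had a mean of 1.00 FPKM, and the entry just below it, Solyc05g052360.1, had 0.999921 FPKM.

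Mature green fruits of the cherry tomato cultivar 'XinTaiyang' (Solanum lycopersicum var. cerasiforme) received 25 μL of solution by injection, either ABA at a strength of 10 mM or, for the control group CK, distilled water. NDGA (1 mM), an inhibitor of ABA synthesis, was injected in the same volume and formed a separate group of the study, and its values are given here only beside those of ABA and CK, without a comparison of both treatments, since they share CK. RNA was taken from pericarp at day 9, when fruits of all groups had been stored detached in the dark. Each group had 2 libraries of pooled fruits from successive harvests, and the authors deposited their average, so every value below is a single mean per group with no error and no test between groups. In such bulk tissue, fewer cells of a type and less RNA per cell cannot be told apart.

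Abscisic acid (ABA) is a plant hormone made from the cleavage of carotenoids, and it is best known for closing stomata, for seed maturation and for drought responses. Cells perceive it through soluble receptors that, once bound, hold back protein phosphatases and so release kinases that act on transcription factors. In fleshy fruits its level increases before ripening, the stage at which chloroplasts become chromoplasts, chlorophyll is lost, carotenoids accumulate and cell walls loosen. The comparison addressed which genes differed on the day of sampling, after the supply of ABA had been increased at the start of this process. The paper reports that fruits given ABA ripened faster than control fruits. It also states that the sampling day was chosen because ripening differed most clearly among the treatments then. The groups thus differed in ripening stage as well as in treatment. Whether a difference below came from ABA directly or from the stage of the fruits was not tested.

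Most entries were close to equal in both groups. The median log2 ratio of ABA to CK, formed after 0.1 FPKM was added to each value, was 0.02 over the 18206 entries, and the middle 50% of entries lay between -0.35 and 0.30. A difference of at least 2-fold toward a higher level with ABA was found for 880 entries, which is 4.83% of those compared, and toward a lower level for 1870 entries, which is 10.3%. These counts, and those of the lists below, include entries listed at exactly 0 in ABA or CK. Among the 17907 entries above 0 in both groups, 790 were higher and 1736 lower. At least 4-fold differences were found for 277 entries toward higher (1.52%) and 666 toward lower levels (3.66%). Among entries past 2-fold, 68.0% were lower with ABA (95% Wilson interval 66.2 to 69.7%, which covers counting error over genes only and says nothing of replicate libraries). These shares are the background against which every list of genes below is read.

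**Figure D1:**
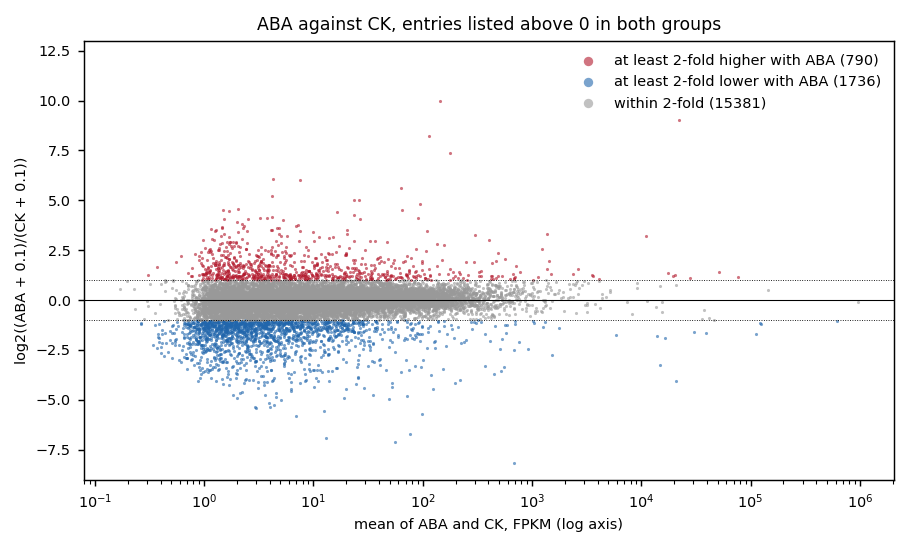
Log2 ratio of ABA to CK (with 0.1 FPKM added to each) against the mean FPKM of both groups on a log axis, for the 17907 entries listed above 0 in both groups. Each point is an entry, 790 of them at least 2-fold higher with ABA and 1736 at least 2-fold lower, and the lower ones crowd at the left, at low FPKM.

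The surplus of lower entries was largest below 20 FPKM. Of 5623 entries with a mean of ABA and CK below 5 FPKM, 435 were at least 2-fold higher and 1185 at least 2-fold lower, with a median log2 ratio of -0.17. Of 5908 entries between 5 and 20 FPKM, 209 were higher and 433 lower, with a median of 0.01. Of 5139 entries with a mean between 20 and 100 FPKM, 148 were higher and 169 lower, with a median of 0.11. Between 100 and 500 FPKM the higher entries were the more numerous, with 53 higher and 45 lower of 1271 entries and a median of 0.08. Among the 265 entries above 500 FPKM, the changed entries were again frequent but close to balanced, at 35 higher and 38 lower. The filter on the level also averaged in NDGA, so entries low in both ABA and CK could pass through a high NDGA value. With the filter on the mean of ABA and CK only, 870 entries were higher and 1658 lower over all levels, against 880 and 1870. The number of fragments behind low values was not analysed here, and counting noise at low levels was not tested.

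The structure of the table bears on these counts. The 18206 entries stood for 15504 genes, and 5953 entries belonged to a gene that had several entries, of which 480 were at least 2-fold higher and 609 lower. The 12253 genes with a single entry gave a more one-sided picture, with 400 higher (3.26%), 1261 lower (10.3%) and 75.9% of the changed genes lower with ABA. The genes named below have a single entry unless stated, and counts for a list are over all its entries that passed the filter. Of the entries compared, 7541 came from a locus given for another entry too, where reads of neighbours can be shared. Among the genes named below, these include Solyc07g056420.2, Solyc10g085880.1, Solyc10g086220.1 and Solyc10g017970.1, and there are others. A gene that is high in only a single group can pass through that group, so such counts describe the list and are not evidence on their own.

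Some entries were listed at exactly 0 in a single group. There were 134 such entries at 0 only with ABA and 90 at 0 only in CK, and 18 of each kind reached at least 100 FPKM in the other group. The most abundant gene listed at 0 with ABA was Solyc12g033020.1, a complex I protein of the NADH-ubiquinone/plastoquinone type, at 988672 FPKM in CK and also listed at 0 with NDGA. Solyc09g089580.2, the 2-oxoglutarate-dependent oxygenase that a deposited table names E8, was listed at 0 with ABA, against 11339 FPKM in CK and 7166 FPKM with NDGA. The paper instead reports E8 as higher with ABA and lower with NDGA, so the listed 0 conflicts with its statement. Solyc10g080210.1, a protein of the pectin lyase-like family, was listed at 0 with ABA, against 10575 FPKM in CK and 2309 FPKM with NDGA. The other 2 of the 5 most abundant such genes had no annotation: Solyc03g013290.1 was listed at 0 with ABA, against 3728 FPKM in CK, and Solyc04g009480.1 had 3320.2 FPKM with ABA and was listed at 0 in CK. Ribosomal protein entries, which every cell uses, were also listed at 0. Of 378 such entries, 375 were above 0 in both groups, and 3 were at 0 in both ABA and CK. Those 3 entries passed the filter through NDGA alone. They do not bear on zeros in a single group. Whether a 0 in these files is an estimate that failed was not tested. No fold is given for such genes, although they are included in the counts of changed entries.

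Genes for capturing light formed the clearest group. The photosystem and light-harvesting list had 113 entries in the table, of which 61 passed the filter. Of these, 38 were at least 2-fold lower with ABA and 1 was at least 2-fold higher, which is 62.3% lower against 10.3% over all entries, and the median log2 ratio was -1.74. Among the 54 genes of the list with a single entry, 52 had a ratio below 0. The single higher entry belonged to Solyc01g048590.1, a photosystem II reaction centre protein A with 2 entries, whose other entry was lower.

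The light-harvesting proteins, which bind chlorophyll and pass light energy to the photosystems, differed most. Of 14 such genes, 13 were at least 2-fold lower with ABA, and their median log2 ratio was -3.84. Solyc03g005760.1, annotated as chlorophyll A/B binding protein 1, had 0.151 FPKM in ABA fruits, against 13.8 FPKM in CK fruits, a log2 ratio of -5.80. Solyc01g105030.2, a subunit 6 of the light-harvesting complex of photosystem II, had 1.63 FPKM in ABA fruits, against 38 FPKM in CK fruits. Solyc10g006230.2, light-harvesting complex gene 2 of photosystem I, had 4.87 FPKM in ABA fruits, against 100.3 FPKM in CK fruits. In each of these genes the NDGA level was above that of CK, at 27.6, 56.5 and 124 FPKM in that order. The exception was Solyc12g011450.1, annotated as light-harvesting chlorophyll B-binding protein 3, with 26.3 FPKM with ABA and 17.5 FPKM in CK, a log2 ratio of 0.59.

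Subunits of the photosystems themselves were lower to a lesser degree and less evenly. Of 12 photosystem I genes, 9 were at least 2-fold lower and all 12 had a ratio below 0, with a median of -2.63. PSI-N (Solyc08g013670.2), a small subunit on the lumen side, had 0.416 FPKM in ABA fruits, against 24.5 FPKM in CK fruits. Subunit K (Solyc08g006930.2) had 5.56 FPKM in ABA fruits, against 100.1 FPKM in CK fruits, and subunit G (Solyc07g066150.1) had 15.4 FPKM in ABA fruits, against 155 FPKM in CK fruits. Among 9 other subunits of photosystem II, 6 were at least 2-fold lower, with a median of -1.65. Subunit Q-2 (Solyc02g079950.2), part of the oxygen-evolving complex, had 3.01 FPKM in ABA fruits, against 95.4 FPKM in CK fruits. The most abundant gene of the list, subunit R of photosystem II (Solyc07g066310.2), was within 2-fold, with 559 FPKM with ABA and 696 FPKM in CK, a log2 ratio of -0.32.

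Paralogs with the same annotation could differ widely. Of the genes annotated as photosystem I subunit E-2, Solyc09g063130.2 had 11 FPKM in ABA fruits, against 53.5 FPKM in CK fruits, while Solyc06g083680.2 had 64.3 FPKM in ABA fruits, against 67.7 FPKM in CK fruits. Likewise, of the genes annotated as photosystem II subunit O-2, Solyc02g090030.2 had 9.15 FPKM in ABA fruits, against 72.1 FPKM in CK fruits, while Solyc02g065400.2 had 71 FPKM in ABA fruits, against 89.6 FPKM in CK fruits. The 12 PsbP-like and other proteins related to photosystem II, many of them assembly factors, had a median of -0.48, and 1 of them was at least 2-fold lower. The 5 genes for the reaction centre proteins A, C and D had a median of -0.61. Such reaction centre proteins are encoded in the plastid genome, and nuclear copies of near-identical sequence can share their reads, so these 5 values are uncertain. The division of the list into these parts was made after its values had been seen.

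**Figure D2:**
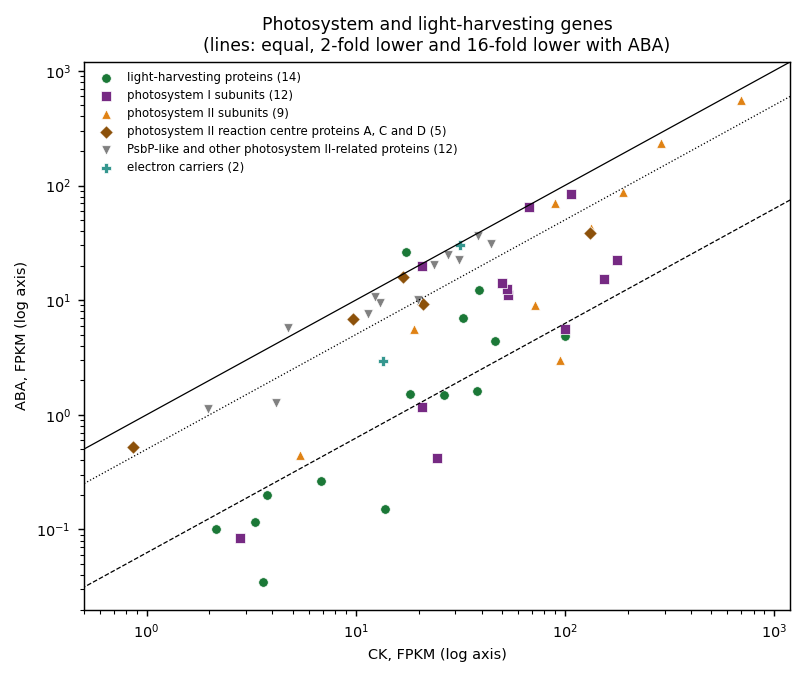
FPKM with ABA against FPKM in CK, both on log axes, for the 54 photosystem and light-harvesting genes with a single entry, with a symbol for each part of the list and lines for equal levels and for 2-fold and 16-fold lower levels with ABA. The 14 light-harvesting genes lie mostly near or below the 16-fold line, 1 of them above the equal line, while 11 of the 12 PsbP-like and related genes lie within 2-fold.

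Genes of carbon fixation, the step in which CO2 is built into sugar, were lower in part. All 29 genes that passed had a single entry, 10 of them were at least 2-fold lower with ABA (34.5%), none was 2-fold higher, and the median was -0.36. Rubisco small-chain genes, which encode a subunit of the enzyme that fixes CO2, were among the lowest, with 7.49 FPKM in ABA fruits, against 85.4 FPKM in CK fruits for Solyc03g034220.2 and 1.57 FPKM in ABA fruits, against 18.9 FPKM in CK fruits for Solyc02g085950.2. The most abundant member, a fructose-bisphosphate aldolase (Solyc02g084440.2), had 286 FPKM in ABA fruits, against 884 FPKM in CK fruits. Rubisco small-chain and light-harvesting genes occur as near-identical copies, so the division of reads among copies is uncertain. The lowest ratio was that of a transketolase, Solyc10g018300.1, with 0.412 FPKM in ABA fruits, against 8.11 FPKM in CK fruits. Other transketolase-family genes were close to equal, such as Solyc05g050970.2 with 67.4 FPKM with ABA and 67 FPKM in CK.

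Chlorophyll synthesis genes differed less than the proteins that bind chlorophyll. Of 14 genes, 2 were at least 2-fold lower and none was higher, with a median of -0.21. Both of the lower genes were annotated as protochlorophyllide oxidoreductase A, the light-dependent step of the pathway, and Solyc10g006900.2 had 0.926 FPKM in ABA fruits, against 3.09 FPKM in CK fruits. Geranylgeranyl reductase (Solyc09g008920.2), which makes the phytol tail, was the most abundant at 80.5 FPKM in ABA fruits, against 85.8 FPKM in CK fruits. The H subunit of magnesium chelatase (Solyc04g015750.2), the enzyme at the branch toward chlorophyll, had the highest ratio, with 54.1 FPKM with ABA and 29.5 FPKM in CK, a log2 ratio of 0.87.

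The carotenoid list held genes on both sides of 0. It had 25 entries in the table, 17 of which passed, 2 at least 2-fold higher and 3 at least 2-fold lower, with a median of 0.18. Among its 15 genes with a single entry, none was higher, 3 were lower and the median was 0.03. Phytoene synthase (Solyc03g031860.2), the first enzyme committed to carotenoids, had 5451 FPKM in ABA fruits, against 2795 FPKM in CK fruits, a log2 ratio of 0.96, while NDGA fruits had 1339 FPKM. A second, low phytoene synthase gene (Solyc02g081330.2) had 6.3 FPKM in ABA fruits, against 8.32 FPKM in CK fruits. Of the enzymes that turn phytoene into red lycopene, zeta-carotene desaturase (Solyc01g097810.2) had 108 FPKM in ABA fruits, against 58.8 FPKM in CK fruits, and carotenoid isomerase (Solyc10g081650.1) had 198 FPKM in ABA fruits, against 118 FPKM in CK fruits. Both higher entries past 2-fold belonged to 15-cis-zeta-carotene isomerase (Solyc12g098710.1).

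Genes that act after lycopene included the 3 lower ones. The lycopene cyclase Solyc04g040190.1, which carries lycopene toward beta-carotene, had 12.1 FPKM in ABA fruits, against 11.9 FPKM in CK fruits. Zeaxanthin epoxidase (Solyc02g090890.2), which supplies the precursors of ABA, had 9.41 FPKM in ABA fruits, against 27.8 FPKM in CK fruits. Epoxycarotenoid dioxygenases (NCED) are named for the cleavage of these precursors toward ABA, although the annotation alone does not show this activity for each gene. The most abundant gene so annotated, Solyc07g056570.1, had 188 FPKM in ABA fruits, against 284 FPKM in CK fruits. Among the other genes of that name, a pair was low and lower still with ABA, at 1.99 FPKM with ABA and 5.41 FPKM in CK for Solyc08g016720.1 and 0.141 FPKM with ABA and 0.692 FPKM in CK for Solyc08g075490.2.

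Within the flavonoid list, the genes past 2-fold higher stood at the entry of the pathway. The phenylpropanoid and flavonoid list had a median of -0.01 over the 27 of 43 entries that passed, with 3 higher and 1 lower past 2-fold. Chalcone synthase commits phenylpropanoids to flavonoids, and both abundant genes of this family were higher with ABA. Solyc05g053550.2 had 676 FPKM in ABA fruits, against 189 FPKM in CK fruits, and Solyc09g091510.2 had 208 FPKM in ABA fruits, against 62.8 FPKM in CK fruits. The third was a chalcone-flavanone isomerase, Solyc05g052240.2, with 258 FPKM in ABA fruits, against 122 FPKM in CK fruits, whereas another gene of that family, Solyc05g010320.2, was the lowest of the list at 2.01 FPKM in ABA fruits, against 7.88 FPKM in CK fruits. Flavanone 3-hydroxylase (Solyc02g083860.2) had 279 FPKM with ABA and 184 FPKM in CK, a log2 ratio of 0.60.

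**Figure D3:**
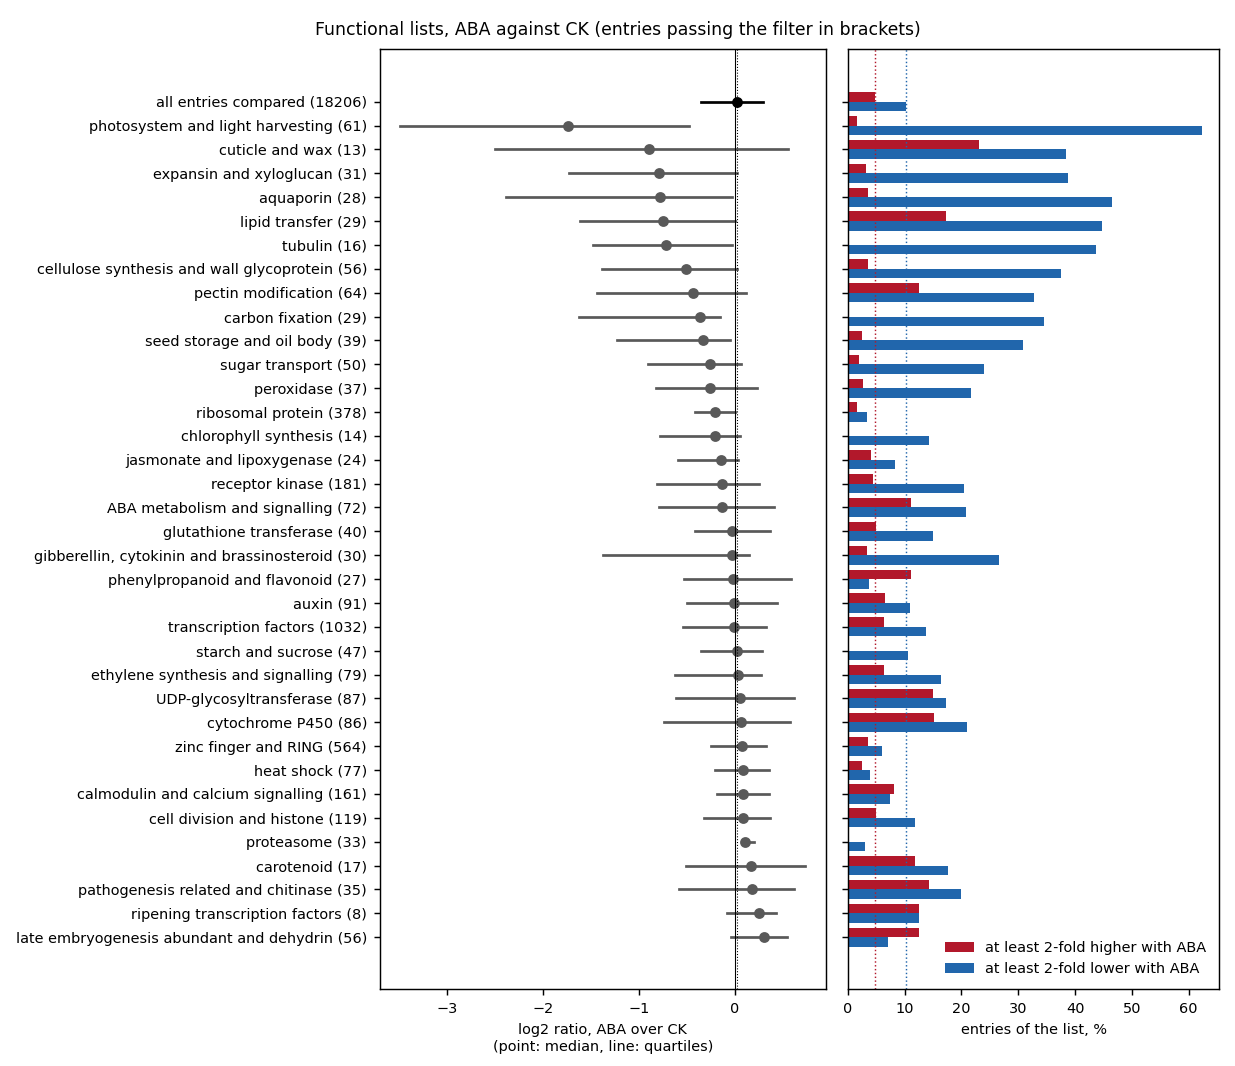
Left panel, the median log2 ratio of ABA to CK (point) with the quartiles (line) for all 18206 entries and for each of the 35 functional lists, with the number of entries that passed in brackets. Right panel, the percentage of each list that was at least 2-fold higher or at least 2-fold lower with ABA, where dotted lines mark 4.83% and 10.3% over all entries. The photosystem list stands apart at -1.74 and the late embryogenesis abundant list has the highest median at 0.30.

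Cell wall lists held more lower entries than the background and a few abundant higher ones. Of 124 entries of the pectin list, 64 passed, 8 of them at least 2-fold higher with ABA (12.5%) and 21 at least 2-fold lower (32.8%), with a median of -0.43. A very abundant pectin lyase-like gene, Solyc03g111690.2, had 3589 FPKM in ABA fruits, against 2131 FPKM in CK fruits, and NDGA fruits had 1053 FPKM. Genes more than 2-fold higher included a rhamnogalacturonate lyase, Solyc11g011300.1, at 25.3 FPKM in ABA fruits, against 7.28 FPKM in CK fruits, a pectin lyase-like gene, Solyc05g005170.2, at 65.8 FPKM in ABA fruits, against 16.6 FPKM in CK fruits, and a pectate lyase, Solyc02g031960.2, at 37.2 FPKM in ABA fruits, against 12 FPKM in CK fruits. Rhamnogalacturonate lyases and pectate lyases cut the pectin backbone, while the annotation pectin lyase-like names a superfamily and not an enzyme activity. Pectin methylesterase inhibitor 2, which slows the removal of methyl groups from pectin, was much higher in Solyc03g112170.1, with 18.2 FPKM with ABA and 1.64 FPKM in CK, a log2 ratio of 3.39. The highest ratio, 4.56, belonged to another inhibitor of that annotation, Solyc09g072950.1, which was low at 4.02 FPKM with ABA and 0.0753 FPKM in CK. On the lower side stood other pectin lyase-like genes such as Solyc09g075460.2, with 41.9 FPKM in ABA fruits, against 139 FPKM in CK fruits, and polygalacturonase 2 (Solyc05g005560.2), with 11.7 FPKM in ABA fruits, against 23.3 FPKM in CK fruits.

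Expansins loosen the wall and xyloglucan endotransglucosylases (XTH) cut and rejoin the polymer that ties cellulose together. Of 52 entries, 31 passed, 1 was at least 2-fold higher and 12 were lower (38.7%), with a median of -0.79. XTH 25 (Solyc07g009380.2) had the lowest ratio of the list, with 3.55 FPKM with ABA and 194 FPKM in CK, a log2 ratio of -5.74, while NDGA fruits had 550.4 FPKM. The most abundant members were within 2-fold: XTH 30 (Solyc01g081060.2) had 1597 FPKM in ABA fruits, against 1229.7 FPKM in CK fruits, and expansin A4 (Solyc06g051800.2) had 720.1 FPKM in ABA fruits, against 730.3 FPKM in CK fruits. The summed level of the list was 2511 FPKM with ABA and 2387 FPKM in CK, although 23 of the 31 entries had a ratio below 0.

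Cellulose synthesis and wall glycoproteins gave 2 higher and 21 lower entries of the 56 that passed out of 97, with a median of -0.51. The lowest gene listed above 0, cellulose synthase-like B3 (Solyc07g051820.2), had 0.0369 FPKM in ABA fruits, against 4 FPKM in CK fruits. Arabinogalactan protein 20 (Solyc12g007050.1), a wall glycoprotein, was the opposite, with 173 FPKM with ABA and 9.8 FPKM in CK, a log2 ratio of 4.13 and 107 FPKM with NDGA. Tubulins, the subunits of the microtubules that guide cellulose deposition, were lower in 7 of 16 entries that passed and higher in none, with a median of -0.72. The tubulin gene Solyc04g077020.2 had 56.3 FPKM in ABA fruits, against 274 FPKM in CK fruits, beta-6 tubulin (Solyc10g080940.1) had 15.4 FPKM in ABA fruits, against 95.4 FPKM in CK fruits, and the most abundant, tubulin beta 8 (Solyc06g035970.2), had 275 FPKM in ABA fruits, against 284 FPKM in CK fruits.

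Several of the lowest ratios belonged to genes annotated with lipid-related enzymes, which were named here for their values and form no list. Among annotated genes with a single entry, values above 0 and a mean of at least 5 FPKM, the lowest ratio was that of a fatty acid hydroxylase, Solyc03g117800.2, with 0.7 FPKM with ABA and 112 FPKM in CK, a log2 ratio of -7.13. Solyc11g067190.1, annotated as an acyl CoA reductase, a class of enzyme that makes fatty alcohols, had 0.209 FPKM in ABA fruits, against 9.92 FPKM in CK fruits. Solyc01g099020.2, a GDSL-type lipase, had 0.423 FPKM in ABA fruits, against 12.1 FPKM in CK fruits. The HXXXD-type acyltransferase Solyc12g087980.1, whose annotation names a family and no lipid, had 0.846 FPKM in ABA fruits, against 19.4 FPKM in CK fruits. Of 19 entries of the cuticle and wax list, 13 passed, all of them 3-ketoacyl-CoA synthases, the enzymes that lengthen fatty acids for waxes, with 5 lower (38.5%), 3 higher (23.1%) and a median of -0.89. The median depended on the entries used: it was 0.10 over all 19 entries without the filter on FPKM and -2.51 over the 7 genes with a single entry, 5 of which were at least 2-fold lower and 1 higher. 3-Ketoacyl-CoA synthase 6 (Solyc02g085870.2) had 25.9 FPKM in ABA fruits, against 282 FPKM in CK fruits, and 3-ketoacyl-CoA synthase 3 (Solyc11g072990.1) had 6.27 FPKM in ABA fruits, against 36.1 FPKM in CK fruits. A second gene annotated as synthase 6, Solyc05g009270.2, was low in both groups and higher with ABA, at 2.87 FPKM with ABA and 1.33 FPKM in CK. The other 2 higher entries both belonged to Solyc03g005320.2, annotated as synthase 2. An entry of it was listed at 638572 FPKM with ABA and at 0 in CK and NDGA, while its other entry was at 4.13 FPKM with ABA and 2.00 FPKM in CK.

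Lipid transfer proteins, which carry lipids through the wall, were mixed, with 5 higher and 13 lower of the 29 entries that passed out of 55 and a median of -0.75. Solyc06g005770.1 was the highest at 13.9 FPKM with ABA and 1.16 FPKM in CK, with 64.2 FPKM in NDGA fruits. The most abundant, Solyc01g090360.2, had 1273 FPKM in ABA fruits, against 1665 FPKM in CK fruits, and 5148 FPKM with NDGA. The annotation of these genes covers lipid transfer proteins, protease inhibitors and seed storage albumins alike, so they bear on the seed markers below.

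Water channels and sugar transporters had medians below 0. Of 41 aquaporin entries, 28 passed, 13 were at least 2-fold lower with ABA (46.4%) and 1 was higher, with a median of -0.78. The abundance lay elsewhere: plasma membrane intrinsic protein 1;4 (Solyc08g081190.2) had 2015 FPKM in ABA fruits, against 1826 FPKM in CK fruits, while a low-level gene of type 1;5 (Solyc10g054840.1) had 0.0839 FPKM in ABA fruits, against 4.36 FPKM in CK fruits. The tonoplast aquaporin Solyc10g083880.1, which lets water into the vacuole, had 329 FPKM in ABA fruits, against 560.3 FPKM in CK fruits. Of 81 sugar transport entries, 50 passed, with 1 higher, 12 lower and a median of -0.26. Nodulin MtN3 proteins, a family of sugar exporters, differed in both directions. Solyc03g097870.2 had 35.3 FPKM in ABA fruits, against 185 FPKM in CK fruits, and Solyc03g097580.2 had the lowest ratio of the list, with 0.0958 FPKM in ABA fruits, against 7.99 FPKM in CK fruits. The highest ratio of the list was also that of an MtN3 gene, Solyc03g005880.2, at 2.95 FPKM with ABA and 0.741 FPKM in CK, a log2 ratio of 1.86. The sucrose-proton symporter 2 (Solyc11g017010.1) had 107 FPKM in ABA fruits, against 177 FPKM in CK fruits.

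Starch and sucrose enzymes were near the background, with 5 of 47 entries lower, none higher and a median of 0.02. Beta-amylase 3 (Solyc01g067660.2), which degrades starch, had 945 FPKM in ABA fruits, against 636 FPKM in CK fruits. A gene for ADP glucose pyrophosphorylase (Solyc07g056140.2), the step that commits glucose to starch, had 0.361 FPKM in ABA fruits, against 4.28 FPKM in CK fruits. Myo-inositol-1-phosphate synthase 3 (Solyc05g051850.2), the first step from glucose phosphate to inositol, was far lower, with 11 FPKM with ABA and 239 FPKM in CK, a log2 ratio of -4.43.

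**Figure D4:**
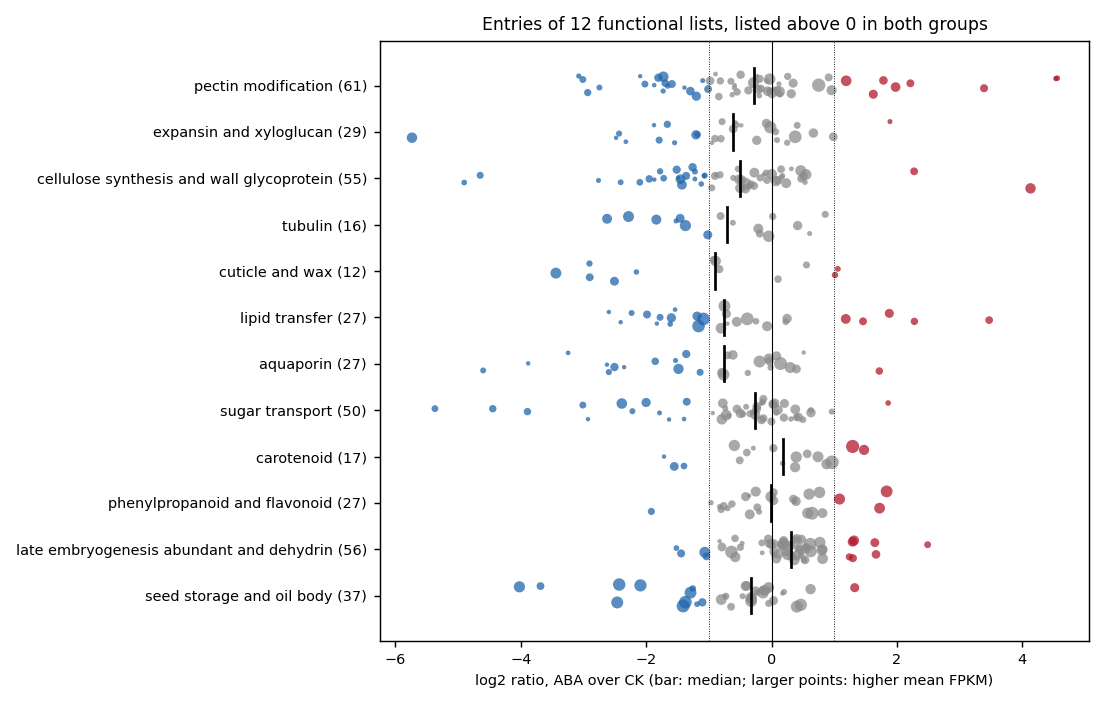
Log2 ratio of ABA to CK for every entry of 12 lists that was listed above 0 in both groups, with the number of entries in brackets, a bar at the median, larger points for a higher mean FPKM, and dotted lines at 2-fold. The aquaporin, tubulin and wall lists have their medians left of 0, and the late embryogenesis abundant list has its median right of 0.

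Enzymes that move carbon between lipids, organic acids and sugars differed in both directions. Malate synthase (Solyc03g111140.2), an enzyme of the glyoxylate cycle, by which lipid carbon is turned toward sugar, had 64.6 FPKM in ABA fruits, against 8.16 FPKM in CK fruits, and 37.9 FPKM with NDGA. Isocitrate lyase (Solyc07g052480.2), the other enzyme specific to that cycle, had 87.4 FPKM with ABA and 21.6 FPKM in CK, a log2 ratio of 2.01. Phosphoenolpyruvate carboxykinase 1 (Solyc04g076880.2), which opens the route from organic acids to sugar, had 547 FPKM in ABA fruits, against 320.1 FPKM in CK fruits. Phosphoenolpyruvate carboxylases, which make organic acids, went both ways, with 186 FPKM with ABA and 123 FPKM in CK for Solyc07g055060.2 and 13 FPKM with ABA and 57.1 FPKM in CK for Solyc07g062530.2. The kinase of that carboxylase (Solyc06g053620.2) had 322 FPKM in ABA fruits, against 147 FPKM in CK fruits. Glutamate decarboxylase (Solyc03g098240.2), which makes gamma-aminobutyrate from glutamate, was lower, with 215 FPKM with ABA and 843 FPKM in CK, a log2 ratio of -1.97. The genes of this paragraph were named for their values and form no list.

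Among the 15 annotated genes with the highest ratios, chosen under the same conditions as the lowest, the first was Solyc07g021050.1, annotated as target of rapamycin, with 287 FPKM with ABA and 0.186 FPKM in CK, a log2 ratio of 9.97, and NDGA fruits had 0.0582 FPKM. This ratio rests on a CK value near 0. The locus extends from 15741027 to 15744680 on chromosome 7, and whether it holds a whole gene of that name was not tested. Next came a coatomer beta' subunit (Solyc03g120260.2), part of the coat of transport vesicles, with 45.6 FPKM in ABA fruits, against 1.3 FPKM in CK fruits. An MLP-like protein gene (Solyc09g090970.2) had 123 FPKM in ABA fruits, against 5.31 FPKM in CK fruits, and 27.9 FPKM with NDGA. The zinc finger gene Solyc04g057990.2, of the C-x8-C-x5-C-x3-H type, had 202 FPKM in ABA fruits, against 18.4 FPKM in CK fruits. Methyl esterase 1 (Solyc02g065280.2), of a family that frees hormones from their methyl esters, had 235 FPKM in ABA fruits, against 33.5 FPKM in CK fruits, with 3.85 FPKM in NDGA fruits. The other ratios of this set were 2.52 for a serpin-type protease inhibitor (Solyc04g079470.2), 2.63 for a serine-rich protein (Solyc12g007060.1), 2.94 for an aspartyl protease (Solyc01g098770.1) and 3.21 for a Rossmann-fold protein (Solyc10g086390.1). Of the 15 genes, only Solyc07g021050.1, Solyc02g065280.2 and the pectin methylesterase inhibitor Solyc03g112170.1 had an NDGA value below that of CK. In all the others NDGA was above CK too, so CK was the lowest group.

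**Figure D5:**
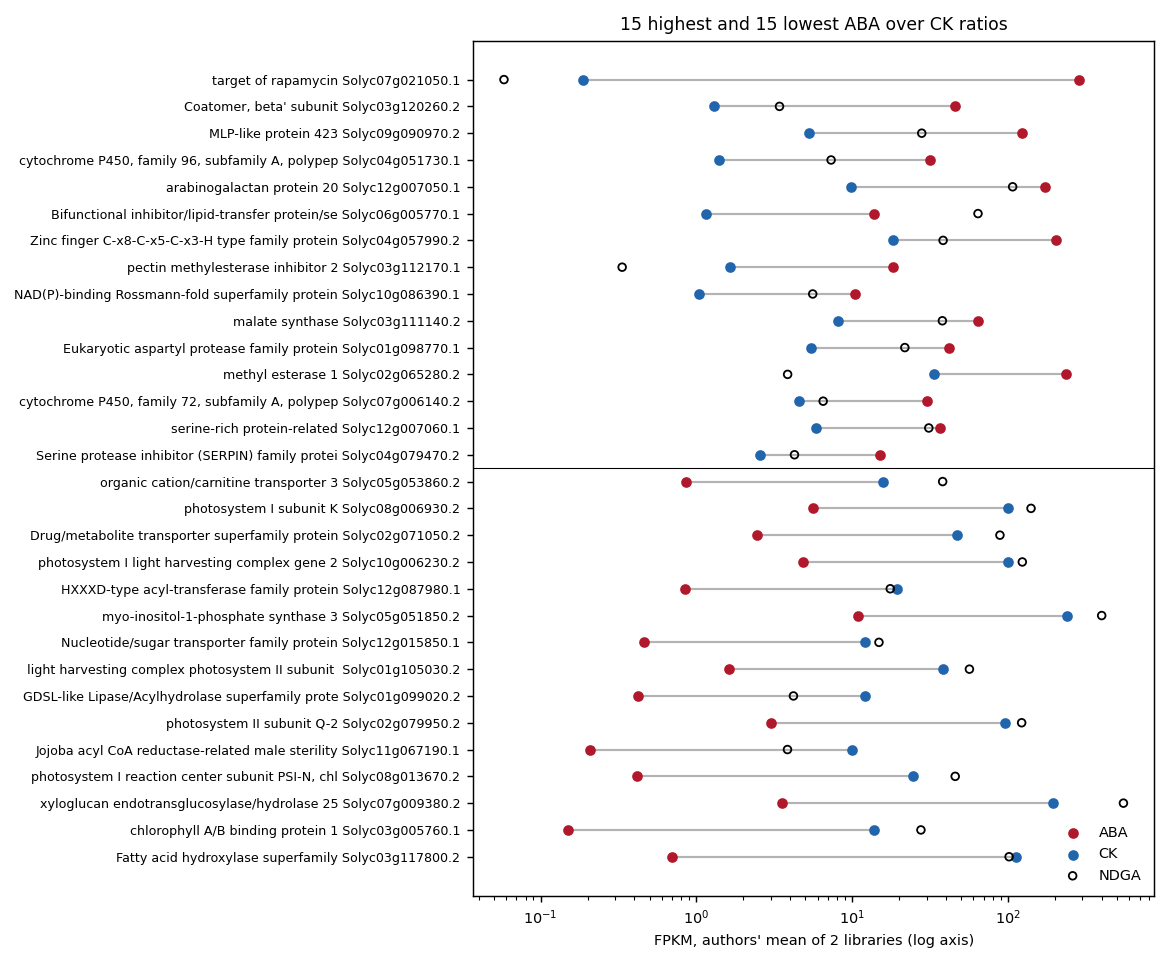
FPKM on a log axis for the 15 annotated genes with the highest and the 15 with the lowest ratio of ABA to CK, among genes with a single entry, values above 0 and a mean of at least 5 FPKM. Filled points are ABA and CK, and open points are NDGA. The photosystem genes among the 15 lowest have their NDGA value right of their CK value, and so do most of the 15 highest.

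Enzymes that modify small molecules differed in both directions. Cytochromes P450, which oxidise hormones, lipids and defence compounds, had 13 higher (15.1%) and 18 lower (20.9%) of the 86 entries that passed out of 184, with a median of 0.07. Solyc04g051730.1, of family 96, had 31.6 FPKM with ABA and 1.39 FPKM in CK, a log2 ratio of 4.41, and Solyc07g006140.2, of family 72, had 30.0 FPKM with ABA and 4.56 FPKM in CK, a log2 ratio of 2.69. The most abundant, Solyc09g066150.1, had 2161 FPKM in ABA fruits, against 1135 FPKM in CK fruits, and Solyc04g050620.2 of family 71 was lowest at 0.0715 FPKM with ABA and 4.2 FPKM in CK. UDP-glycosyltransferases, which attach sugars, had 13 higher and 15 lower of 87, with a median of 0.06, and the most abundant, Solyc10g085880.1, had 11694 FPKM in ABA fruits, against 6576 FPKM in CK fruits. Glutathione transferases had 2 higher and 6 lower of 40, with a median of -0.03. Glutathione S-transferase TAU 25 (Solyc07g056420.2) was both the most abundant of them and the highest in ratio among genes with a single entry, with 3932 FPKM with ABA and 1342 FPKM in CK, a log2 ratio of 1.55. Peroxidases had 1 higher and 8 lower of 37, with a median of -0.26.

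Stress and defence lists had medians above 0. Late embryogenesis abundant proteins and dehydrins, which protect cells that lose water and are well-known ABA-responsive genes, had 7 higher (12.5%) and 4 lower (7.14%) of 56 entries that passed out of 75, with a median of 0.30. Among the 42 genes with a single entry, 2 were higher (4.76%) and 4 lower (9.52%). Cold-regulated 47 (Solyc04g082200.2), the most abundant, had 1012 FPKM in ABA fruits, against 659.9 FPKM in CK fruits, and Solyc07g053360.2 was the highest of the single-entry genes at 100.4 FPKM in ABA fruits, against 40.3 FPKM in CK fruits. Pathogenesis-related and chitinase genes had 5 higher and 7 lower of 35, with a median of 0.18. The most abundant chitinase, Solyc10g017970.1, had 26322 FPKM in ABA fruits, against 15366 FPKM in CK fruits, and Solyc03g116190.1 had 276 FPKM in ABA fruits, against 105 FPKM in CK fruits. On the other side, the pathogenesis-related gene Solyc02g031950.2 had 50.9 FPKM in ABA fruits, against 211 FPKM in CK fruits, but it was listed with the same wide locus as 2 neighbouring genes of the family. Metallothionein 2A (Solyc09g010800.2), a metal-binding protein, was among the 10 largest gains in FPKM, with 18565 FPKM in ABA fruits, against 11449 FPKM in CK fruits. Alternative oxidase 1A (Solyc08g075540.2), which bypasses part of the respiratory chain, had 115 FPKM in ABA fruits, against 52 FPKM in CK fruits.

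Ranking by the difference in FPKM picked many genes without an annotation, 5 of the 10 largest gains and 6 of the 10 largest losses. Of the 40 entries above 10000 FPKM in ABA or CK, 21 had none. The annotated gains, besides the chitinase, the metallothionein and the glycosyltransferase already named, were peptidemethionine sulfoxide reductase 1, the gene that a deposited table names E4 (Solyc03g111720.2), with 11052 FPKM in ABA fruits, against 7288 FPKM in CK fruits, and a pyridoxal phosphate-dependent transferase (Solyc08g066240.2), with 4984 FPKM in ABA fruits, against 2063 FPKM in CK fruits. The annotated losses listed above 0 were a VMA21-like assembly protein of the vacuolar ATPase (Solyc11g065610.1), with 6819 FPKM in ABA fruits, against 25894 FPKM in CK fruits, and senescence-associated gene 21 (Solyc09g075210.2), with 6165 FPKM in ABA fruits, against 21708 FPKM in CK fruits, which was listed at 0 with NDGA. The genes without annotation ranged in gain up to Solyc03g116200.1, at 171456 FPKM with ABA and 119280.0 FPKM in CK, and in loss to Solyc11g027660.1, at 75731 FPKM with ABA and 169487 FPKM in CK.

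The ribosomal protein and proteasome lists were narrow. Of 378 ribosomal protein entries that passed out of 412, 6 were higher (1.59%) and 13 lower (3.44%), yet the median was -0.21, and 215 of the 271 genes with a single entry had a ratio below 0. The most abundant, Solyc06g071720.1, had 706 FPKM in ABA fruits, against 817 FPKM in CK fruits. Their summed level was 34916 FPKM with ABA and 41474 FPKM in CK. Proteasome genes lay on the other side of 0 with a median of 0.11, and 1 of the 33 entries that passed was lower past 2-fold and none was higher. Of the 29 proteasome genes with a single entry, 4 had a ratio below 0, and PAA2 (Solyc12g009140.1), a subunit of the core, had 162 FPKM in ABA fruits, against 138 FPKM in CK fruits. Heat shock proteins had 2 higher and 3 lower of 77, with a median of 0.08. Cell division and histone genes were spread about as widely as all entries, with quartiles of -0.32 and 0.37. They had 6 higher (5.04%) and 14 lower (11.8%) of 119, with a median of 0.09. Calcium signalling genes had 13 higher (8.07%) and 12 lower (7.45%) of 161, also with a median of 0.09. Zinc finger and RING proteins had 20 higher (3.55%) and 34 lower (6.03%) of 564, with a median of 0.08. Of the 56 KEGG pathways with at least 15 entries, 5 had a median of -0.25 or less and 1 of 0.25 or more. Photosynthesis was the lowest at -1.64 over 28 genes, and glutathione metabolism was the highest at 0.33 over 17. The KEGG pathway of carotenoid biosynthesis had a median of -0.37 over 19 entries, against 0.18 for the carotenoid list above, which was built from annotation and has other members.

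Regulators as a class had medians near 0. The deposited table of transcription factors matched 1032 entries, 66 higher (6.40%) and 143 lower (13.9%), with a median of -0.00. By family, among those with at least 10 entries, LBD factors had the lowest median at -1.21, with 7 of 13 lower, and TALE homeobox factors had the highest at 0.27, with 2 of 13 higher and none lower. NAC factors, which include ripening regulators, had 5 higher and 2 lower of 40, and MYB factors had 0 higher and 10 lower of 49. The highest single-entry factor, LOB domain-containing protein 21 (Solyc03g095940.1), had 8.18 FPKM in ABA fruits, against 0.952 FPKM in CK fruits, opposite to its family's median. Receptor kinases had 8 higher and 37 lower (20.4%) of 181, with a median of -0.14.

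The hormone lists had medians between -0.15 and 0.04, with unequal shares of lower entries. Auxin genes had 6 higher and 10 lower of 91, and a GH3-family gene, Solyc01g107400.2, of a family that conjugates auxin to amino acids, had 175 FPKM in ABA fruits, against 564 FPKM in CK fruits. In the list of gibberellin, cytokinin and brassinosteroid genes, with 1 higher and 8 lower (26.7%) of 30, brassinosteroid-6-oxidase 1 (Solyc02g089160.2), a late enzyme of brassinosteroid synthesis, had 122 FPKM in ABA fruits, against 52.5 FPKM in CK fruits, the highest ratio of its single-entry genes, and a brassinosteroid-responsive RING-H2 gene (Solyc04g054370.1) had the lowest, with 3.04 FPKM in ABA fruits, against 17.6 FPKM in CK fruits. In the list of jasmonate and lipoxygenase genes, with 1 higher and 2 lower of 24, lipoxygenase 2 (Solyc01g006540.2), which oxidises fatty acids, had the highest ratio of the single-entry genes, with 1105 FPKM in ABA fruits, against 597 FPKM in CK fruits, and 12-oxophytodienoate reductase 2 (Solyc10g086220.1) had the lowest, with 0.689 FPKM in ABA fruits, against 3.19 FPKM in CK fruits. The deposited ABA table gave 8 higher and 15 lower (20.8%) of 72, and the ethylene table gave 5 higher and 13 lower (16.5%) of 79. LeACS2 (Solyc01g095080.2), a 1-aminocyclopropane-1-carboxylate synthase that makes the precursor of ethylene, had 678 FPKM in ABA fruits, against 297 FPKM in CK fruits, the highest ratio among single-entry genes of the ethylene table. The ethylene-forming enzyme Solyc02g036350.2, of a family that carries out the last step of ethylene synthesis, had 159.8 FPKM in ABA fruits, against 661 FPKM in CK fruits. This gene does not stand for the whole step. The paper reports that LeACO1 (Solyc07g049530.2), the most abundant gene of that family, was higher with ABA. Those tables were assembled by the authors from these same libraries, so their counts are not independent evidence of a direction.

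Markers of ripening fruit and of seed were both present. All 8 entries of the deposited list of ripening transcription factors passed, with a median of 0.26 and summed levels of 3288 FPKM with ABA and 2425 FPKM in CK. LeFUL1 (Solyc06g069430.2), a MADS-box regulator of ripening, was the highest, with 919.7 FPKM in ABA fruits, against 446 FPKM in CK fruits, and MADS1 (Solyc03g114840.2) was the lowest, with 37.8 FPKM in ABA fruits, against 78.2 FPKM in CK fruits. The labels give the tissue as pericarp, and according to the study's methods the seeds were removed at sampling. Genes of seed storage proteins and oil bodies were at high levels in every group. Of 54 entries of that list, 39 passed, 1 at least 2-fold higher and 12 at least 2-fold lower with ABA (30.8%), with a median of -0.33. The summed level of the list was 5843 FPKM with ABA, 12201 FPKM in CK and 26019 FPKM with NDGA. Seed storage albumin 5 (Solyc08g080490.2) had 961 FPKM in ABA fruits, against 2557 FPKM in CK fruits, and 5783 FPKM with NDGA. Cruciferin 3 (Solyc03g005580.2), a storage globulin of seeds, had 25.6 FPKM in ABA fruits, against 417 FPKM in CK fruits, and 698 FPKM with NDGA. The oleosin Solyc12g010920.1, a coat protein of oil bodies, had 309 FPKM in ABA fruits, against 340.1 FPKM in CK fruits. In all, 31 of the 39 entries had a ratio below 0, and so did 21 of the 25 genes with a single entry. Of the defining markers, both entries of seed storage albumin 3 (Solyc07g064220.1) were listed at 0 with ABA. Cupin-type members of the list include proteins of other tissues. The part that seed RNA had in the lower levels with ABA was not tested. Leaving the list out of the 12253 single-entry genes left 400 higher and 1251 lower genes.

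Changed genes sometimes followed each other in the order of the entries compared. Ordering the entries along the chromosomes of build SL2.40 gave 30 runs of at least 3 neighbouring genes that were all at least 2-fold changed in the same direction, 26 toward lower and 4 toward higher levels with ABA, and no run was longer than 4 genes. Neighbours here are consecutive among the entries compared, so genes that did not pass the filter can lie between them. A lower run on chromosome 2 extended from 20185974 to 21281954. In 5 of the runs all genes had the same annotation, and 21 runs held at least 2 different annotations. On chromosome 3, Solyc03g097580.2, Solyc03g097590.2 and Solyc03g097600.2, between 53354925 and 53385093, all belonged to the MtN3 family of sugar exporters, and their log2 ratios were -5.37, -3.89 and -2.00. On chromosome 1, between 87770045 and 87788179, 3 genes of 2-oxoglutarate-dependent oxygenases were all higher, and Solyc01g108880.2 was the most abundant of them with 1098 FPKM in ABA fruits, against 333 FPKM in CK fruits and 75.9 FPKM with NDGA.

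Further runs were as follows. Acyl-CoA N-acyltransferases made up 3 of the 4 genes of a lower run on chromosome 8, between 54940071 and 55111991, and Solyc08g068690.1 among them had 10.5 FPKM in ABA fruits, against 38.1 FPKM in CK fruits. Nodulin MtN21-type transporters made up a lower run on chromosome 1, between 82536275 and 82584334, with a ratio of -3.90 for Solyc01g100900.2. A higher run on chromosome 4, between 56141779 and 56173673, held genes without annotation, among them Solyc04g071610.2 with 27427 FPKM in ABA fruits, against 11940.2 FPKM in CK fruits. In 2 runs all genes were listed with the same wide locus, where reads of neighbours can be shared. Runs were counted without a test, and neighbouring copies of a family share sequence, so reads could be split between them.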

How the data were processed

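Expression was measured by poly(A) RNA sequencing in pericarp of ABA, NDGA and CK fruits, with 2 libraries per group and 6 in all, and groups follow the labels. The submitters' processing notes name TopHat2 2.0.9, Cufflinks 2.1.1 and Cuffdiff. The FPKM were deposited by the authors as 1 average per group, so no spread, test, interval or paired comparison between groups could be made, and the fragments behind a value are unknown. The spread between the harvests of a group was thus not measured here.

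Entries were kept by the rule given in the report and compared by log2((ABA + 0.1)/(CK + 0.1)). A difference of at least 2-fold was counted, and medians and counts of 35 lists were set beside those over all entries. Lists were matched on the annotation of the table or on gene identifiers of smaller deposited tables, whose columns of calls between groups, the authors' own comparisons, were not used. The members and lists were chosen with earlier results of these data known. Named genes were, among genes with a single entry, the 15 highest and 15 lowest ratios with an annotation and a mean of at least 5 FPKM, the 10 largest gains and 10 largest losses, the most abundant, highest and lowest of each list, the 5 most abundant listed at 0 in a single group, and genes in runs. Other genes named were chosen from the lists after their values were seen. Alternatives were another pseudocount, filter, threshold or scaling, single-entry genes only, and, chosen after seeing the data, entries with a locus of their own and genes without the seed list. The scripts, in Python 3.11.15 (matplotlib 3.10.9, scipy 1.17.1, pandas 2.3.3, numpy 2.4.6), were tested on simulated data.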

Additional observations from a re-analysis of the deposited data

How the results depend on the processing

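No paired analysis was possible because each group has a single averaged value, and for the same reason no library could be left out. Lower entries outnumbered higher ones under each alternative. With a pseudocount of 1, 1229 entries were lower and 65.7% of the changed entries were lower, and the expansin and xyloglucan median was -0.45. With no filter on FPKM, 1694 were higher and 3124 lower (64.8%), and medians were -1.40 for photosystem genes, -0.15 for pectin, -0.37 for expansin and xyloglucan and 0.10 for cuticle and wax, which thereby changed sign. With a mean of at least 5 FPKM, 427 were higher and 817 lower (65.7%), and the lipid transfer median was -0.39. With the filter on the mean of ABA and CK only, the share was 65.6%. With genes of a single entry, 400 were higher (75.9% lower), and medians were -0.88 for cellulose and wall glycoproteins, -2.51 for cuticle and wax and -0.65 for seed genes. At an absolute log2 ratio of 1.5, 459 were higher and 1074 lower (70.1%). With entries that had a locus of their own and values above 0, 296 were higher and 1050 lower (78.0%), and the same medians were -0.90, -2.33 and -0.65. Single-entry genes without the seed list gave 400 higher (75.8% lower). Runs of at least 4 genes numbered 2. Rescaling to equal medians shifted ratios by -0.02. Of 315 list medians computed under these alternatives, 303 lay within 0.25 of the value reported and 12 did not, and of the counts of changed entries per list 172 moved by over 1.5 times and 458 did not. No named gene reversed, but with a pseudocount of 1 the ratios of 125 named genes moved by 0.25 or more and those of 112 did not, so ratios that rest on a value near 0 depend on the pseudocount.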
